A study of Mus musculus with 2 samples.

Results

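The genes described here are 10 of the 31053 genes counted, namely granzymes and other genes of the cytotoxic granule. They were chosen by name for their known function, with earlier results of these data known. There are 6 granzymes (Gzma, Gzmb, Gzmc, Gzmd, Gzme and Gzmf), 1 pore-forming protein (Prf1), 1 granule membrane protein (Nkg7), 1 cathepsin (Ctsw) and 1 granzyme inhibitor (Serpinb9). Counts were taken over dendritic epidermal T cells (DETCs, the gamma-delta T cells of mouse epidermis) and over the alpha-beta T cells and innate lymphoid cells (ILCs) found beside them.

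The study asked what DETCs lose when Skint1, a keratinocyte protein that DETCs sense, is blocked. Lymphocytes of the ear epidermis were sorted as live cells with CD45 and without EpCAM and MHC-II, and their RNA was counted by droplet sequencing of 3′ ends. There were 2 libraries, both from wild-type female FVB/NJ mice of 8 weeks. One followed isotype control antibody and the other anti-Skint1 antibody, each injected into the skin 7 d before the ears were taken. Each treatment has 1 library, with no replicate, and cells of a library are not replicates. Treatments were therefore not tested against each other, and an effect of the antibody cannot be told apart from one of the library. Counts are of unique molecular identifiers (UMIs, tags that let each captured mRNA molecule be counted once), 27272211 for isotype and 32450957 for anti-Skint1. Of the barcodes with at least 500 genes, 4896 in the isotype and 6594 in the anti-Skint1 library, 8 occurred in both.

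Cytotoxic lymphocytes keep granzymes, which are serine proteases, in granules together with perforin, and release both onto a target cell. Perforin opens the target's membrane, granzymes cut proteins inside it, and serpins in the killer's own cytosol block granzyme that leaks. DETCs are known to lyse transformed keratinocytes and to carry granule genes without an outside challenge.

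A barcode counted as a cell if it showed 500 to 2500 genes and its mitochondrial UMIs made up 12% or less, which 4242 isotype and 5961 anti-Skint1 barcodes did. DETCs were those with at least 3 UMIs of Trdc, at least 3 of Cd3d, Cd3e and Cd3g together, and none of Trac, Cd4, Cd8a and Cd8b1. This gave 3544 DETCs in the isotype library (median 4027.5 UMIs a cell) and 4945 in the anti-Skint1 library (median 3577). Alpha-beta T cells had at least 1 UMI of Trac and none of Trdv4, and numbered 197 (median 3766 UMIs) and 213 (median 3581). ILCs had at least 3 UMIs of Il7r, Rora and Gata3 together, at most 2 of CD3 and none of Trdv4, and numbered 82 (median 4570 UMIs) and 139 (median 4334). A few cells, 9 and 14, passed both of the last gates, and 428 and 678 passed none. The DETCs showed all 7 of 7 DETC markers in both libraries, with sums of 22704 and 22078 UMIs per 1000000 UMIs of the class (CPM) and Cd3g the most abundant. Cd3g is also a gene of the DETC gate, so these sums do not check the class independently. Natural killer (NK) cell markers, 2 of 3 and 3 of 3 found, summed to 8.66 and 4.76 CPM in DETCs, with Klrb1c the most abundant and Ncr1 at 0 in the isotype library. Levels below are CPM of UMIs summed over a class, and values in parentheses after a level, ratio or share are its 95% interval, which covers counting error only. Counts from 3′ ends do not scale with transcript length, so levels of genes are set side by side as UMIs and not per length.

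Between the libraries, the DETCs differed in Gzmb, less firmly in Gzmc, and little in Prf1, Nkg7 and Ctsw. Of the 8 members with at least 10 UMIs over both libraries, 2 were lower by 0.5 or more on the log2 scale in the anti-Skint1 library (Gzmb and Gzme) and 0 were higher. Over the 7549 genes with a mean of at least 10 CPM in DETCs, 0.596% were lower and 0.119% higher by the same fold. Of the 5 members at that level, 1 was lower (Gzmb), 0 were higher, and the median log2 ratio was -0.04 beside -0.03 over the 7549 genes. Prf1, Nkg7 and Ctsw, the most abundant members, stayed within 0.10 of 0 on the log2 scale.

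Gzmb, the granzyme that cleaves caspases and other proteins after aspartate, stood at 131.9 CPM (126 to 138) in isotype DETCs and at 80.6 CPM (76.6 to 84.8) in anti-Skint1 DETCs. These levels rest on 1934 and 1508 UMIs. The log2 ratio was -0.71 (-0.81 to -0.61), and it was below 0 under every alternative tried. Split by the cells' mitochondrial share, Gzmb was 129.8 and 86.3 CPM up to 5%, 135 and 80.1 CPM over 5 to 8%, and 118 and 49.5 CPM over 8 to 12%, isotype first. The isotype library was the higher one in each of the 3 bins, and the gap was widest in the bin with the fewest cells, which held 258 and 299 DETCs.

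Gzmc, a granzyme found in mice and not in humans, was the most abundant granzyme in DETCs of both libraries, at 228 CPM (221 to 236) and 164 CPM (158 to 170). A small number of cells set these levels: leaving out the 10 highest of each library, Gzmc was 129 and 53.7 CPM, against 102.9 and 72.4 CPM for Gzmb treated alike. The order of Gzmc and Gzmb in the anti-Skint1 library thus turned. Some of these highest cells lacked Trdv4, a DETC marker that the gate did not require. The anti-Skint1 cells with 313, 232, 203 and 91 Gzmc UMIs had 0 UMIs of Trdv4, whereas the highest isotype cells had from 4 to 14. With Trdv4 required, 4146 of the 4945 anti-Skint1 DETCs remained. Whether the cells without it are of another kind was not tested. The log2 ratio between the libraries was -0.48 (-0.55 to -0.41), just short of the fold used for a call, and it passed that fold under 7 of the alternatives. In the same mitochondrial bins it was 187 and 248 CPM, 259 and 132 CPM, and 188 and 37.2 CPM. The first bin had the libraries in the other order, and 1 anti-Skint1 cell with 583 UMIs carried this. Without the highest cell of each library, an alternative added after the data were seen, Gzmc in that bin was 174 CPM (163 to 185) and 149 CPM (139 to 159), with the isotype library the higher one.

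The other granzymes were scarce in DETCs. Gzme, a close relative of Gzmc, had 36 and 16 UMIs, or 2.46 and 0.855 CPM, with a log2 ratio of -1.52 (-2.47 to -0.64). A single isotype cell held 19 of the 36 UMIs, and in the bin of over 5 to 8% mitochondrial UMIs the ratio had the other sign. Gzmf, another of these relatives, had 34 and 58 UMIs, or 2.32 and 3.10 CPM, with a log2 ratio of 0.42 (-0.22 to 1.07), and 16 and 22 of those UMIs lay in 1 cell each. Gzmd, also of that group, had 0 and 3 UMIs. Gzma, the tryptase-like granzyme typical of NK cells and CD8 T cells, had 2 UMIs in each library. At this depth no difference in Gzma or Gzmd could be detected.

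Prf1, which encodes perforin, was 644 CPM (631 to 657) in isotype and 636 CPM (625 to 648) in anti-Skint1 DETCs, a log2 ratio of -0.02 (-0.06 to 0.02). Nkg7, a granule membrane protein that takes part in granule release, was the most abundant member at 2358 and 2492 CPM, with a ratio of 0.08 (0.06 to 0.10). Ctsw, a cathepsin of T and NK cells, was 1034 and 1005 CPM, with a ratio of -0.04 (-0.07 to -0.01). These intervals exclude a log2 change of 0.5 for all 3 genes, as far as counting error goes.

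Serpinb9, the serpin that blocks granzyme B in the cell that makes it, was low at 11.3 CPM (9.60 to 13.1) and 8.18 CPM (6.93 to 9.58), from 165 and 153 UMIs. Its log2 ratio was -0.46 (-0.79 to -0.13), so the interval includes the fold used for a call. In both libraries the order of levels in DETCs was Nkg7, Ctsw, Prf1, Gzmc, Gzmb and Serpinb9, followed by Gzme and Gzmf, which did not differ beyond counting error in the isotype library and stood the other way round in the anti-Skint1 library. Gzma and Gzmd came last and could not be ordered.

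**Figure D1:**
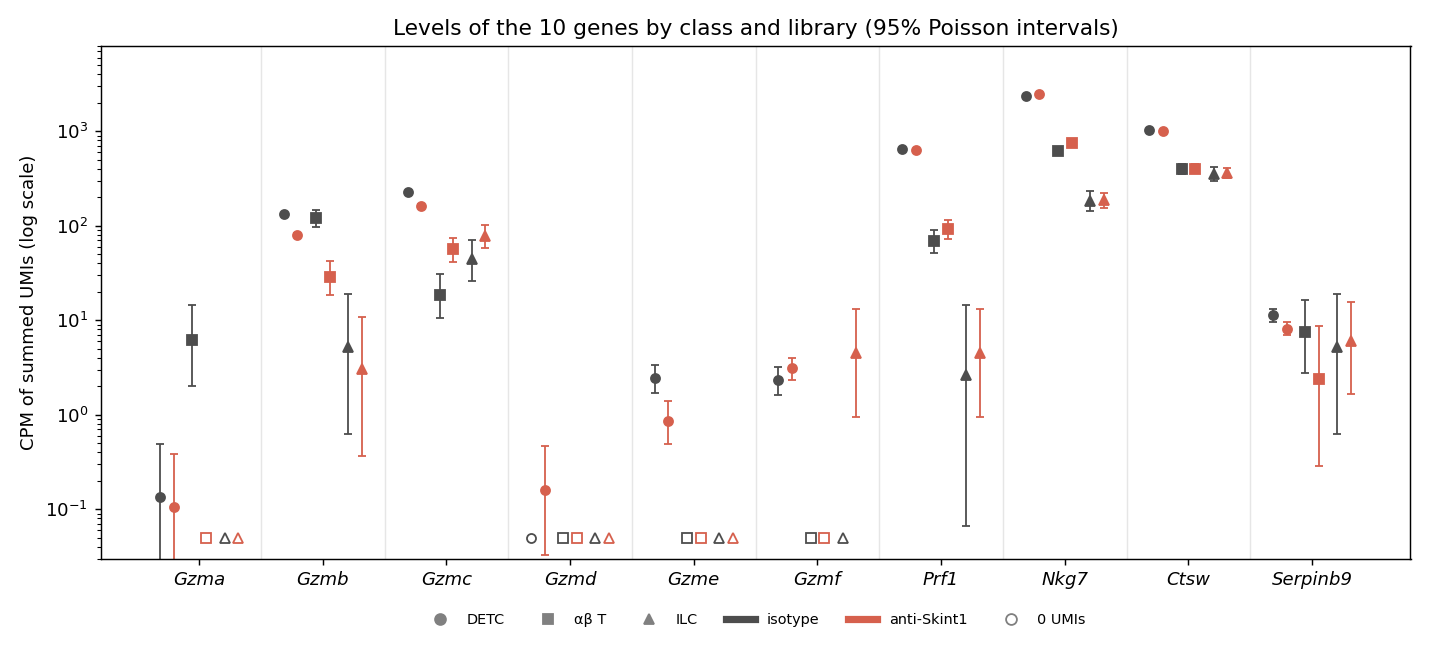
CPM of the 10 members (log axis) in DETCs, alpha-beta T cells and ILCs of the isotype and anti-Skint1 libraries, with bars for the 95% Poisson interval and open symbols at the bottom for 0 UMIs. Nkg7, Ctsw and Prf1 sit highest in DETCs of both libraries, and Prf1 is lower in ILCs, with 1 and 3 UMIs, than in the other classes.

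Compared with alpha-beta T cells of their own library, DETCs held more of 4 members. Of the 6 members with a ratio in both libraries, 4 were higher in DETCs by 1 or more on the log2 scale in both (Gzmc, Prf1, Nkg7 and Ctsw) and 0 were lower. Over 7512 genes, 8.65% were higher and 5.11% lower by the same rule, with median ratios of 0.12 and 0.17 in the isotype and anti-Skint1 libraries. These genes needed a mean of 10 CPM or more over both classes, and the members 10 UMIs only. The counts and shares can therefore not be weighed against each other. Prf1 was 68.7 CPM (51.7 to 89.4) and 92.1 CPM (72.7 to 115) in alpha-beta T cells, and the ratio of DETCs to these was 3.23 and 2.79. Nkg7 was 621 and 746 CPM there, with ratios of 1.93 and 1.74, and Ctsw was 399.6 and 402 CPM, with ratios of 1.37 and 1.32. Gzmc was 18.7 and 56.2 CPM in alpha-beta T cells, from 15 and 47 UMIs, and 28 of the 47 lay in 1 cell. It was among the members higher in DETCs in every alternative for this comparison, none of which left out the highest cells. Without their 10 highest cells, anti-Skint1 DETCs had 53.7 CPM of Gzmc, so its place in that library rests on few cells.

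Gzmb separated the classes in one library and not in the other. Its level in alpha-beta T cells was 121 CPM (98.2 to 148) in the isotype library, from 97 UMIs, and 28.7 CPM (18.4 to 42.7) in the anti-Skint1 library, from 24. The ratio of DETCs to alpha-beta T cells was thus 0.12 (-0.17 to 0.43) and 1.49 (0.91 to 2.14). Serpinb9 had 6 and 2 UMIs in alpha-beta T cells, and its ratios of 0.59 (-0.57 to 2.05) and 1.77 (-0.10 to 4.83) left the order undetectable at this depth. Gzmd, Gzme and Gzmf had 0 UMIs in alpha-beta T cells of both libraries.

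Against ILCs the contrast in perforin and Gzmb was wider. Of 6 members with a ratio in both libraries, 5 were higher in DETCs (Gzmb, Gzmc, Prf1, Nkg7 and Ctsw) and 0 lower, beside 11.5% of 7594 genes higher and 6.62% lower. These shares have the same limit as those for alpha-beta T cells. Prf1 had 1 UMI in isotype and 3 UMIs in anti-Skint1 ILCs, and the ratio of DETCs to ILCs was 7.95 (5.47 to 13.25) and 7.13 (5.58 to 9.41). Gzmb had 2 UMIs in the ILCs of each library, with ratios of 4.66 (2.80 to 7.71) and 4.73 (2.88 to 7.78). Nkg7 was 183 and 187 CPM in ILCs, with ratios of 3.69 and 3.74. Ctsw was the member that ILCs carried most, at 355 and 362 CPM, with ratios of 1.54 and 1.47. Gzmc was 44.4 and 77.3 CPM, with ratios of 2.36 (1.68 to 3.14) and 1.08 (0.68 to 1.51), and in the isotype library the sign turned when cells with over 2500 genes were kept. Gzmc was no longer among the members higher in DETCs under 6 of the 10 alternatives, and in ILCs 12 of its 17 and 24 of its 51 UMIs lay in 1 cell each, so its place among the 5 is not firm.

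The ILC gate held other cells too. Keratinocyte markers summed to 428 CPM in isotype ILCs (3 of 4 found, Krt1 at 0) and 3526 CPM in anti-Skint1 ILCs (4 of 4), with Krt14 the most abundant. Myeloid markers summed to 830.5 and 1334 CPM, with 4 of 5 and 3 of 5 found, Cd74 the most abundant, Csf3r at 0 in both and Itgam at 0 in the anti-Skint1 library. Of the NK markers, the ILCs had 0 of 3 in the isotype and 2 of 3 in the anti-Skint1 library. Without keratinocyte barcodes, without barcodes with Trac or without those with an NK marker, Gzmb, Prf1, Nkg7 and Ctsw remained higher in DETCs, and Gzmc did so in the last case only. Few barcodes carried most of the Krt14 and Cd74. Of the Krt14 UMIs, 108 of 108 lay in 1 isotype barcode and 1223 of 1229 in 9 anti-Skint1 keratinocyte barcodes, and of the Cd74 UMIs, 209 of 292 and 579 of 699 lay in 1 and 4 barcodes with at least 10 each. Those 1 and 4 barcodes held 0 UMIs of any member in the isotype library, and 4 of Ctsw and 1 of Serpinb9 in the other. Myeloid cells with less Cd74 were not set apart.

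The Gzmb of alpha-beta T cells lay mostly in cells with Foxp3, the factor of regulatory T cells, in the isotype library. The 16 isotype regulatory T cells (with Foxp3 and without Cd8a and Cd8b1) held 68 of the 97 Gzmb UMIs, a level of 1111 CPM (863 to 1409), and 12 of them had a Gzmb UMI. In the anti-Skint1 library 12 regulatory T cells held 8 of 24 UMIs, or 225 CPM (97.1 to 443), and 3 had a UMI. Without cells with a Foxp3 UMI, alpha-beta T cells had 36.8 and 20.0 CPM of Gzmb, and Gzmb then joined the members higher in DETCs in both libraries. Prf1 had 0 UMIs in regulatory T cells of either library, so their Gzmb came without detected perforin mRNA, with an upper bound of 60.3 and 104 CPM.

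CD8 cells, the classical killers among alpha-beta T cells, were few, with 25 and 17 cells. Their Nkg7 was 1194 CPM (999 to 1416) and 1670 CPM (1381 to 2002), and their Ctsw was 742 and 714 CPM. Prf1 in these cells rested on 9 and 3 UMIs, or 81.4 CPM (37.2 to 155) and 42.8 CPM (8.83 to 125). DETCs thus exceeded CD8 cells in all 3 genes, most of all in Prf1. Gzmb had 11 and 1 UMIs in CD8 cells, and all 5 Gzma UMIs of isotype alpha-beta T cells were in 1 CD8 cell. CD4 cells without Foxp3, 44 in each library, had 182 and 297 CPM of Nkg7, 25.1 and 28.0 CPM of Gzmb, and 0 and 2 UMIs of Prf1.

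Most perforin in the alpha-beta T gate lay in cells that also had Trdc. There were 39 and 57 such cells, and of the Prf1 UMIs of the class they held 34 of 55 (isotype) and 74 of 77 (anti-Skint1). Gzmc lay mostly in such cells in the anti-Skint1 library, with 43 of 47 UMIs, 28 of them in 1 cell, and not in the isotype library, with 3 of 15. Markers of dermal gamma-delta T cells summed to 195 and 202 CPM in the alpha-beta T class, with 4 of 4 found and the most abundant being 5830411N06Rik (the gene of Scart2) in the isotype and Il17a in the anti-Skint1 library, and to 18.6 and 11.1 CPM in DETCs. In alpha-beta T cells without Trdc, Prf1 was 33.1 CPM (20.5 to 50.6) and 5.02 CPM (1.03 to 14.7). The part of gamma-delta cells or doublets in these counts was not tested.

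Free RNA held the same members. Barcodes with 1 to 100 UMIs, taken to hold no cell, had 1501 and 1545 CPM of Nkg7, 636 and 637 of Ctsw, 224 and 281 of Prf1, 154 and 128 of Gzmc, 61.3 and 56.2 of Gzmb and 8.75 and 8.55 of Serpinb9. These values give the makeup of free RNA and not the amount that a cell's barcode takes up, as ILCs lay far below them in Prf1 and Nkg7. Keratinocyte barcodes, which should lack all members, numbered 3 (median 5481 UMIs) and 19 (median 6672 UMIs). In the larger group, 3 of 19 (15.8%) had a Nkg7 UMI, 1 of 19 (5.26%) a Serpinb9 UMI, and 0 of 19 a UMI of any other member, which allows a share of up to 15.8% (3 divided by the number of barcodes, as for every 0 below). In the smaller one, 1 of 3 had a Gzmc UMI. Prf1 and Gzmb were at 0 in the keratinocyte barcodes of both libraries.

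The members differed in how they were spread over DETCs. To make depths equal, DETCs were thinned at random to 2000 UMIs, which kept 3410 and 4743 cells and left out 134 and 202 shallower ones. Nkg7 was then found in 97.1% (96.5 to 97.6) of isotype and 97.8% (97.3 to 98.2) of anti-Skint1 DETCs, and in 99.1% and 99.2% without thinning. Ctsw was found in 82.8% and 82.3%, against 94.7% and 93.2% without thinning, and Prf1 in 68.2% and 68.3%, against 85.8% and 84.4%. After the same thinning, 0 of 3 and 0 of 19 keratinocyte barcodes had a UMI of any member. The 3 genes were thus near general in DETCs, with medians of 9 and 9 UMIs a cell for Nkg7, 4 and 3 for Ctsw, and 2 and 2 for Prf1 before thinning.

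Granzymes were found in a minority of DETCs. Gzmb was found in 9.94% (8.96 to 10.99) and 7.97% (7.21 to 8.78) of thinned DETCs, or 14.3% and 10.96% without thinning. Gzmc was found in 7.07% (6.23 to 7.98) and 4.196% (3.64 to 4.81), or 9.76% and 5.95% without thinning. Serpinb9 was found in 1.91% and 1.48%, or 3.75% and 2.63% without thinning. Gzme was found in 6 and 4 thinned cells, Gzmf in 7 and 14, Gzmd in 0 and 2 and Gzma in 0 and 2, where 0 of 3410 allows a share of up to 0.0880% with a UMI at this depth. In alpha-beta T cells thinned alike, 190 and 196 with 7 and 17 left out, the shares were 7.37% and 4.08% for Gzmb (13.7% and 6.57% unthinned) and 7.89% and 11.7% for Prf1 (13.7% and 17.8% unthinned). In ILCs, 77 and 136 with 5 and 3 left out, Ctsw was found in 40.3% and 41.9% (69.5% and 64.7% unthinned) and Nkg7 in 23.4% and 22.8% (35.4% and 43.2% unthinned). Prf1 was found in 0 of 77 and 3 of 136 ILCs, where 0 of 77 allows a share of up to 3.90% with a UMI at this depth. Without thinning it was 1 of 82 (1.22%) and 3 of 139 (2.16%).

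The UMIs of granzymes were also concentrated in few cells. Gzmc was the more concentrated, with 43.6% and 67.3% of its UMIs in its 10 highest cells and 494 and 583 in the highest. The 10 DETCs with the most Gzmb UMIs held 22.2% (isotype) and 10.4% (anti-Skint1) of all its UMIs, and the highest cell had 121 and 27. For Prf1, the 10 highest cells held 1.49% and 1.08%, for Nkg7 0.935% and 0.682%, and for Ctsw 1.66% and 1.10%. For Serpinb9 they held 15.8% and 17.0%, although its highest cell had only 3 and 4 UMIs, so a low total also raises this share. The highest cell had 17 and 15 UMIs of Prf1, 56 and 34 of Nkg7, and 32 and 28 of Ctsw. Without the 10 highest cells of each library, Gzmb was 102.9 and 72.4 CPM, so the isotype library stayed the higher one. In thinned cells the variance over the mean, which is 1 for pure counting error, was 7.88 and 3.23 for Gzmb and 42.4 and 58.8 for Gzmc. It was 1.36 and 1.30 for Prf1, 1.506 and 1.503 for Nkg7, 1.506 and 1.398 for Ctsw, and 1.32 and 1.24 for Serpinb9. Gzmb and Gzmc thus had more excess spread than the 3 abundant genes, although this measure tends to grow with the level. For the same reason it does not rank those 3 among themselves.

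**Figure D2:**
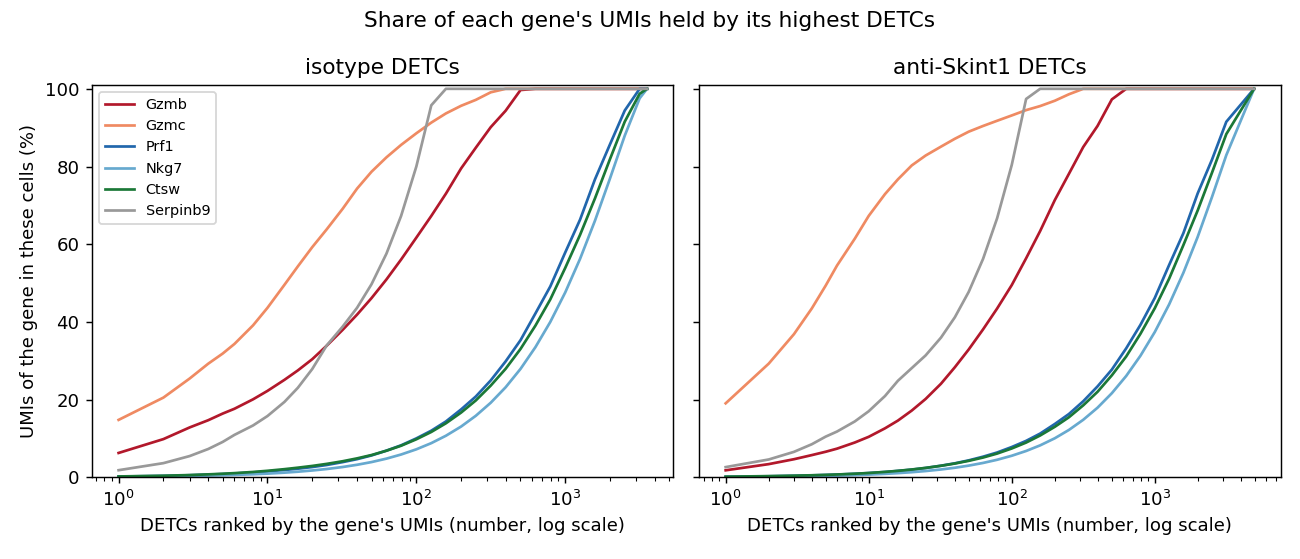
Cumulative share of the UMIs of Gzmb, Gzmc, Prf1, Nkg7, Ctsw and Serpinb9 (y axis, percent), for each library. DETCs are ranked from the highest to the lowest count of the gene (x axis). Lines of Gzmc and Gzmb rise over the first cells, and the 10 highest cells hold 22.2% and 10.4% of Gzmb against 1.49% and 1.08% of Prf1.

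Gzmb and Gzmc occurred in the same DETCs more often than their own shares would give, and the other granzymes were too rare to tell. Of 3410 thinned isotype DETCs, 2882 had no granzyme, 463 had 1, 65 had 2 and 0 had 3. Of 4743 thinned anti-Skint1 DETCs, the numbers were 4206, 477, 58 and 2. The pair of Gzmb and Gzmc made up most of the cells with more than 1.

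Gzmb and Gzmc were found together in 55 isotype DETCs where their shares gave 23.96, an observed number 2.30 times the expected (1.73 to 2.99). In the anti-Skint1 library 56 cells had both where 15.9 were expected, a ratio of 3.53 (2.67 to 4.59). These cells were 16.2% and 14.8% of the cells with Gzmb and 22.8% and 28.1% of those with Gzmc. When detection needed 2 UMIs of each gene, a setting added after the data were seen, the ratio was 3.74 (2.31 to 5.71) and 6.43 (3.67 to 10.4). Cells with Gzmb were hardly deeper than those without, with medians of 4137 and 4066 UMIs before thinning in the isotype library and 3654.5 and 3625 in the other. For Gzmc the medians were 4183 and 4064, and 3770.0 and 3623.5.

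Among all 15 pairs of the 6 granzymes, 6 had an expected number above 0 in both libraries, and 4 of these stood at 2 or more times the expected number in both. Apart from Gzmb with Gzmc, at most 1.12 cells were expected, so a single cell can decide whether a pair is counted, and the number of pairs says little. Beside Gzmb with Gzmc these were Gzmb with Gzme (3 and 1 cells), Gzmb with Gzmf (3 and 3 cells) and Gzmc with Gzme (1 and 1 cells). Gzmc with Gzmf stood at 6.06 (1.25 to 17.7) and 1.70 (0.0431 to 9.49), from 3 and 1 cells, and Gzme with Gzmf at 0 cells. With 3 or fewer cells behind each, the ratios of these rarer pairs have wide intervals that include 1 in at least 1 library, and Gzmb with Gzmc is the pair that the depth resolves. Across the alternatives the number of pairs at that level ran from 2 to 5.

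Pairs with Prf1, Nkg7 and Ctsw cannot be read in this way, since genes found in most cells leave little room above 1. The highest ratio possible was 1.47 and 1.46 with Prf1, 1.03 and 1.02 with Nkg7, and 1.208 and 1.215 with Ctsw, against 10.06 and 12.55 for Gzmb with Gzmc. Gzmb with Prf1 stood at 1.02 (0.894 to 1.16) and 1.02 (0.899 to 1.149), and 69.6% of the cells with Gzmb had Prf1 in both libraries. Gzmb with Nkg7 stood at 0.978 and 0.995, and Gzmb with Ctsw at 0.969 and 0.935. Gzmc with Prf1 stood at 0.888 (0.750 to 1.04) and 0.912 (0.758 to 1.09), and Gzmc with Ctsw at 1.08 and 1.01. All these intervals include 1. The inhibitor Serpinb9 went with Gzmb at 2.17 (1.18 to 3.64) in the isotype library, from 14 cells, and at 1.08 (0.395 to 2.34) in the anti-Skint1 library, from 6. With Gzmc it stood at 1.74 (0.752 to 3.43) and 2.04 (0.750 to 4.45), from 8 and 6 cells.

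**Figure D3:**
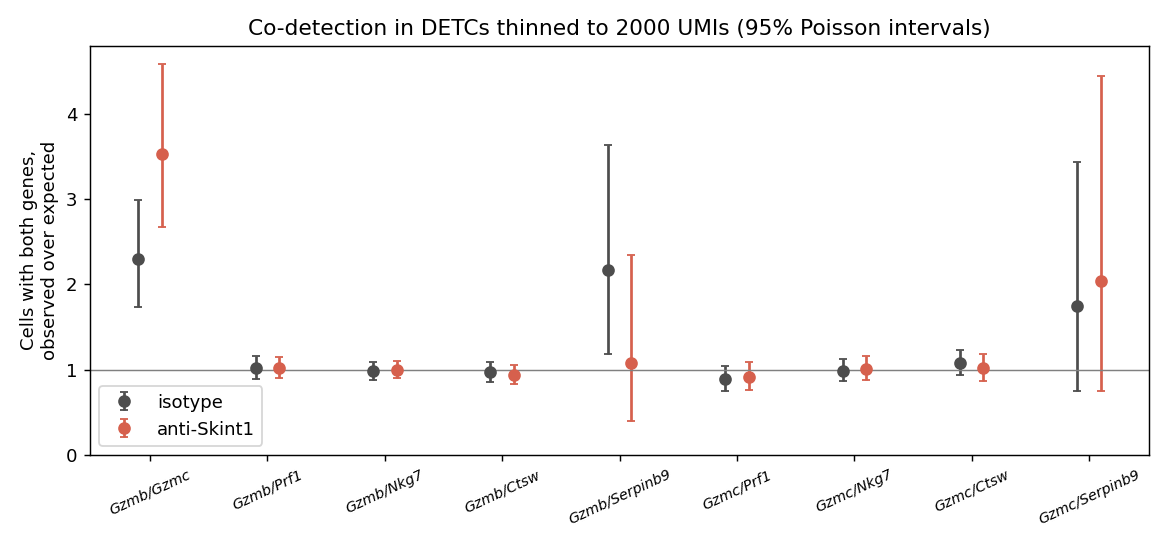
Observed over expected number of thinned DETCs with both genes (y axis) in the isotype and anti-Skint1 libraries, with bars for the 95% interval and a line at 1. Pairs (x axis) are Gzmb with Gzmc, and each of these with Prf1, Nkg7, Ctsw and Serpinb9. Gzmb with Gzmc lies at 2.30 and 3.53, and the pairs with Prf1, Nkg7 and Ctsw, which could reach 1.47 at most, lie near the line.

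The cells with most Gzmb differed between the libraries, also in Gzmb itself. The 10 highest had 21 to 121 Gzmb UMIs (median 28.5) in the isotype and 11 to 27 (median 12.5) in the anti-Skint1 library. The sets compared here are thus at unlike Gzmb levels. Of the 10 highest isotype cells, 8 had Gzmc, 9 had Xcl1, a chemokine of activated DETCs, and all 10 had Tnfrsf9, the costimulatory receptor 4-1BB. Their Xcl1 level was 13343 CPM and their Nkg7 level 1135 CPM. Of the 10 highest anti-Skint1 cells, 5 had Gzmc, 2 had Xcl1 (45.6 CPM) and 3 had Tnfrsf9, and a single cell carried 583 of their 600 Gzmc UMIs. Nkg7 in these cells was 2235 CPM. Over all DETCs without thinning, Xcl1 was found in 19.9% of isotype and 9.77% of anti-Skint1 cells, and Tnfrsf9 in 25.7% and 16.5%. Both genes were thus scarcer in anti-Skint1 DETCs at large. The 10 cells with most Gzmc had more Ctsw than DETCs at large, 2345 CPM in the isotype and 2401 CPM in the anti-Skint1 library, and Ctsw was found in all 10 of each.

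Cells with a granzyme were then compared with cells without it, over thinned DETCs of the same library, for lists of state genes. In cells with Gzmb, the 7 immediate early genes, which answer recent stimulation, all had a ratio above 0 in both libraries, with median log2 ratios of 0.60 in the isotype and 0.70 in the anti-Skint1 library. The interval of Nr4a3, named after its values were seen, included 0 in the anti-Skint1 library, at 0.32 (-0.10 to 0.71). Over all genes at 10 CPM or more, 7556 and 7548, the median was -0.06 in each. Egr1 had ratios of 0.83 (0.66 to 1.00) and 0.77 (0.64 to 0.91), and Junb of 0.53 (0.44 to 0.62) and 0.62 (0.54 to 0.70). The link of Gzmb to immediate early genes was thus present in both libraries.

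Most activation genes also had a ratio above 0 in cells with Gzmb, 11 of the 12 with a ratio (isotype) and 11 of the 13 (anti-Skint1), with medians of 0.77 and 0.65. Some of these intervals include 0. Ramp1, picked after its values were seen, was lower in both, at -0.97 (-2.06 to -0.06) and -1.87 (-4.17 to -0.29), from 10 and 3 UMIs in the cells with Gzmb. Xcl1 was 1094 CPM in isotype cells with Gzmb and 245 CPM in those without, a ratio of 2.16 (2.03 to 2.29). In the anti-Skint1 library it was 120.4 and 91.5 CPM, a ratio of 0.40 (0.07 to 0.71). Tnfrsf9 showed the same narrowing, from 1.71 (1.48 to 1.94) to 0.44 (0.04 to 0.82). Cd69, an early activation marker, did not, with ratios of 0.29 (0.14 to 0.43) and 0.40 (0.28 to 0.53). Havcr2, which encodes the inhibitory receptor TIM-3, had ratios of 1.38 (0.75 to 1.97) and 0.85 (-0.11 to 1.71), and Cd244, another receptor of that list, of -0.05 and -0.08.

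Of the NK receptors, Klrk1, which encodes NKG2D, had ratios of 0.14 (-0.03 to 0.30) and 0.10 (-0.07 to 0.25) in cells with Gzmb, and Klrd1, which encodes CD94, of -0.10 (-0.24 to 0.05) and -0.21 (-0.35 to -0.06). Division genes had medians of -0.21 and 0.22, Pcna ratios of 0.11 (-0.36 to 0.55) and 0.47 (0.04 to 0.87), and Top2a ratios of 0.54 (-0.20 to 1.21) and -0.43 (-1.46 to 0.45). Among members, cells with Gzmb had slightly less Nkg7, at ratios of -0.18 (-0.25 to -0.10) and -0.14 (-0.21 to -0.07), and about as much Prf1, at 0.14 (0.01 to 0.28) and 0.07 (-0.07 to 0.20). Serpinb9 was higher in isotype cells with Gzmb, at 1.47 (0.62 to 2.25), and not clearly so in anti-Skint1 cells, at 0.17 (-1.20 to 1.28).

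In cells with Gzmc, most activation genes had a ratio above 0 in both libraries. The study had already named Gzmc, Xcl1, Tnfrsf9, Cd82, Ramp1, Il13 and Ctsw as enriched in a small DETC cluster of these same libraries. The link of these genes with Gzmc, also in the 10 highest cells and in the correlations below, is therefore not an independent result. Xcl1 had ratios of 2.99 (2.87 to 3.12) and 3.43 (3.22 to 3.63), from levels of 1759 and 221 CPM in the isotype and 716 and 66.6 CPM in the anti-Skint1 library. Tnfrsf9 had ratios of 1.81 (1.57 to 2.06) and 1.57 (1.19 to 1.94), and Cd69, the smallest under the naming rule, of 0.54 (0.38 to 0.69) and 0.48 (0.31 to 0.64). Activation genes were above 0 in 11 of 13 and 10 of 12 cases, with medians of 0.59 and 1.16 beside -0.05 and -0.07 over all genes. Ramp1, named after its values were seen, went from 1.43 (0.83 to 1.99) to -0.46 (-2.36 to 0.93), with 32 and 4 UMIs in the cells with Gzmc. The immediate early genes were above 0 in 7 of 7 cases in both, with smaller medians of 0.27 and 0.47, with the largest mean ratio over the libraries at Fosb and the smallest at Nr4a3. Fosb had ratios of 0.03 (-0.22 to 0.27) and 0.97 (0.76 to 1.18), and Nr4a3 of 0.43 (-0.01 to 0.84) and 0.12 (-0.49 to 0.68), so 3 of these 4 intervals include 0. Pcna had ratios of 0.46 (-0.04 to 0.93) and 0.19 (-0.45 to 0.77), Cd244 of -0.17 and -0.12, Klrk1 of -0.04 and 0.13, and Klrd1 of -0.09 and -0.19. The inhibitory receptors with a ratio, 3 in each library, had medians of 1.46 and 0.33. Lag3 and Havcr2 of that list, picked after their values were seen, had ratios of 1.46 (0.48 to 2.34) and 1.39 (0.02 to 2.52), and of 1.53 (0.84 to 2.16) and 0.33 (-1.33 to 1.602). Gzmb was higher in cells with Gzmc, at 2.42 (2.20 to 2.63) and 2.31 (2.04 to 2.58). Gzmf had ratios of 4.302 (2.65 to 6.07) and 3.32 (1.80 to 4.68) from 9 and 7 UMIs. Those UMIs lay in 3 isotype cells and 1 anti-Skint1 cell, so the ratios of Gzmf do not describe cells with Gzmc in general. Ctsw was also higher in cells with Gzmc, at 0.57 (0.46 to 0.68) and 0.33 (0.20 to 0.46), whereas Nkg7 was lower at -0.14 (-0.23 to -0.05) and -0.23 (-0.33 to -0.13). Prf1 was slightly lower too, at -0.19 (-0.37 to -0.02) and -0.16 (-0.36 to 0.03), and the second of these intervals includes 0. Gzma was found in 0 and 2 thinned cells, too few to describe.

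The genes most like Gzmb, Gzmc, Nkg7 and Ctsw over thinned DETCs were ranked by Pearson correlation of log2 counts, taking the lower value of the libraries, among 8786 genes. Cells share their library and depth here, and the values are a description. For Gzmb the first was Gzmc (r = 0.191 in the isotype and 0.167 in the anti-Skint1 library), followed by Nfkbia (0.136 and 0.147), Hist1h2bc, Fos and Areg. For Gzmc the first was Xcl1 (0.359 and 0.187), followed by Gzmb, Ccl1, Tnfrsf9 and Cd82. Nkg7 went with Cd3g (0.341 and 0.287), Fcer1g, Ctla2a, Vim and Tcrg-C1, and Ctsw with Cd3g (0.198 and 0.173), Tmsb4x, Fcer1g, Nkg7 and Tmsb10. Gzmb and Gzmc were thus among the genes most like each other. Prf1 and Nkg7 had an r of 0.0921 and 0.0490 with each other.

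Other genes of the granule pathway, a list of 54, were compared between the libraries in the same way. Of the 44 with a ratio, 2 were lower by 0.5 or more in anti-Skint1 DETCs and 1 was higher, and of the 35 at 10 CPM or more 0 were lower and 0 higher, with a median of -0.04. With 0.596% lower and 0.119% higher over all genes at that level, 0 of 35 does not set the list apart. The 3 past that fold all had low counts: the serpin Serpina3g (17 and 14 UMIs, -0.63), the transcription factor Eomes (10 and 9 UMIs, -0.50) and the receptor Il15ra (11 and 24 UMIs, 0.77). Intervals of these 3 ratios all include 0.

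By function, the most abundant of these genes were serglycin (Srgn), the proteoglycan that holds granule contents, at 980.1 and 898 CPM, Lamp1, a membrane protein of lysosomes and granules, at 167 and 159 CPM, and Serpinb6a, another serpin, at 64.1 and 74.6 CPM. For death ligands it was Tnf at 81.3 and 85.3 CPM, and for regulators Il2rg, the common cytokine receptor chain, at 532 and 536 CPM. Further granzymes were near 0, with 3 and 6 UMIs of Gzmm, 0 and 7 of Gzmg, and none of Gzmk and Gzmn. Rab27a, Il2rb and the genes of the class comparison that follows were picked once their values had been seen. Rab27a, a GTPase of granule docking, was 87.5 and 70.5 CPM (-0.31, -0.42 to -0.20), and Il2rb, the shared receptor chain of IL-2 and IL-15, was 215 and 179.8 CPM (-0.26, -0.33 to -0.19).

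Against alpha-beta T cells, 5 of 41 pathway genes with a ratio were higher in DETCs of both libraries (Ctsc, Cst7, Serpinb6b, Runx3 and Nfil3) and 9 were lower (Lgmn, Stx11, Syt11, Serpinb1a, Ifng, Prdm1, Tbx21, Id2 and Bhlhe40), where over all genes 8.65% were higher and 5.11% lower. These shares are over genes with a mean of 10 CPM or more over both classes, and the pathway genes needed 10 UMIs only, so the counts and shares cannot be weighed against each other. Ctsc, the cathepsin that activates granzymes, was 109.8 and 108 CPM in DETCs and 41.2 and 43.0 CPM in alpha-beta T cells. Runx3, a transcription factor of cytotoxic T cells, was 376 and 389 CPM against 126 and 136. Tbx21, which encodes the factor T-bet, went the other way, with 2 and 4 UMIs in DETCs and 13 and 10 in the far fewer alpha-beta T cells. Against ILCs, 9 of 43 were higher in DETCs and 12 were lower, beside 11.5% and 6.62% over all genes. Of the release genes, Lyst and Rab27a, which serve granule formation and docking, were higher, and Stx11, a syntaxin of granule fusion, and Cd63, a granule membrane protein, were lower.

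Gzmb, Gzmc, Gzmd, Gzme and Gzmf lie together in the genome. On GRCm38, the build of the counts, 5 members lie on the minus strand of chromosome 14 in 1 cluster of 7 granzyme genes, which spans 144.6 kb. From the lower coordinate the order is Gzme, Gzmd, Gzmg, Gzmn, Gzmf, Gzmc and Gzmb. Gzmb (ENSMUSG00000015437, chr14:56258838-56262260) and Gzmc (ENSMUSG00000079186, chr14:56231441-56234656) are neighbours, 24.2 kb apart. Gzmf (ENSMUSG00000015441) lies at chr14:56205263-56211417, Gzmd (ENSMUSG00000059256) at chr14:56129556-56132608 and Gzme (ENSMUSG00000022156) at chr14:56117626-56120625. The most abundant granzymes thus lie at one end of the cluster, and Gzmd, Gzmg and Gzmn, at or near 0 UMIs, lie between Gzmf and Gzme.

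The other members lie elsewhere. Gzma (ENSMUSG00000023132, chr13:113093825-113100981) and Serpinb9 (ENSMUSG00000045827, chr13:33003250-33017957) share a chromosome at a distance, Prf1 (ENSMUSG00000037202) lies at chr10:61297833-61304680, Nkg7 (ENSMUSG00000004612) at chr7:43437073-43438249 and Ctsw (ENSMUSG00000024910) at chr19:5465043-5468507. Coding sequences of Gzmb and Gzmc are 78.1% identical, and those of Gzmd and Gzme 95.03%. Even so, of the 403 stretches of 98 bases in the last 500 bases of the Gzmb, Gzmc, Gzmd, Gzme or Gzmf transcript, 0 occur in a transcript of another gene, so that an error-free read of that length from there has 1 source.

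Promoters are shown for Gzmb, Gzmc and Gzmf, since Gzmb and Gzmc were found together and Gzmf has the same motif matches as Gzmc at a far lower level. Sequences are from RefSeq on GRCm38.p6, which had 9 of the 10 members (Ctsw was the other), and each is the 250 bases before the start, from 5′ to 3′ on the minus strand. Searched on both strands were TGTGGT (the core of RUNX sites), TGANTCA (the AP-1 site) and TGACGT (the first letters of the CRE site TGACGTCA, which matches on both strands). Capitals mark the matches, with ACCACA the other strand of TGTGGT. Of 32851 promoters, 14.05% hold TGTGGT, 6.75% TGANTCA and 6.47% TGACGT.

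Gzmb, chr14:56262335-56262584: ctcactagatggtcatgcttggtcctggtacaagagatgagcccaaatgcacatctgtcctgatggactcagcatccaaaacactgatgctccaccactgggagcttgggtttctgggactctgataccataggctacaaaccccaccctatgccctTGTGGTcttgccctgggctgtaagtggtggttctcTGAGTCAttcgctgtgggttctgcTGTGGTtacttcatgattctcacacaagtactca
Gzmc, chr14:56234658-56234907: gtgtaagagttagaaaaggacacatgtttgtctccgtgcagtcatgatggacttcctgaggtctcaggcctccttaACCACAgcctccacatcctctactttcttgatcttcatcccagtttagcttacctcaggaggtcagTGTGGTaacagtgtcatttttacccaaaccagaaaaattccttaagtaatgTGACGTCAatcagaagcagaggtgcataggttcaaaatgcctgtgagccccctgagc
Gzmf, chr14:56211408-56211657: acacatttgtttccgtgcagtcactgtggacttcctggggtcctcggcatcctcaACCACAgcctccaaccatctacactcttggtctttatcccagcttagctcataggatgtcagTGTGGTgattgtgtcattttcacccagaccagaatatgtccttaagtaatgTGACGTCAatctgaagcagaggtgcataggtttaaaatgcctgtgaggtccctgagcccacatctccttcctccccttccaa

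TGTGGT matched in 8 of the 9 members, with 2 matches in each of Gzmb, Gzmc, Gzmd, Gzme and Gzmf and 1 in Gzma, Prf1 and Nkg7. Serpinb9 had none, but its RefSeq start lies inside the annotated gene, and that of Gzmb lies beyond the annotated start. The RefSeq starts of Nkg7, Gzmd, Gzmf and Prf1 also lie inside the annotated gene, by fewer bases than that of Serpinb9. For these genes the stretch searched may thus not be the promoter in use. TGANTCA matched in Gzmb, and TGACGT in Gzmc, Gzmf and Prf1. Of the 250 bases, Gzmb and Gzmc had 48.4% in common, Gzmc and Gzmf 79.2%, Gzmc and Gzmd 83.6%, and Gzmc and Gzme 84.4%. These shares are over all 250 bases, including those that did not align. Gzmb and Gzmc aligned over 168 bases, 121 of them identical, against 223 and 198 for Gzmc and Gzmf. The Gzmb stretch begins beyond the annotated start, and how much this offset lowers its share was not tested. The shares thus do not rank Gzmb against the scarce Gzmd, Gzme and Gzmf in likeness to Gzmc. A match describes the letters, and no binding was measured.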

How the data were processed

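Raw UMI counts per gene and barcode, unfiltered, were deposited by the authors, who made them with Cell Ranger on GRCm38 (mm10), and both libraries were used without further normalization. Each library lists 6794880 barcodes and 31053 genes. The members and lists were chosen with earlier results of these data known. Cells were gated as the report states, UMIs were summed by class and library, and levels are CPM with exact Poisson intervals. Ratios have exact conditional binomial (Clopper-Pearson) intervals and need at least 10 UMIs over both groups. A member was called at a log2 ratio of 0.5 between libraries, or of 1 between classes in both libraries. All intervals cover counting error only, and with 1 library per treatment no test was made and no p-value is given. Depth allowed intervals of 0.10 log2 or less on either side of the treatment ratio of Gzmb in DETCs, against 0.95 for Gzme.

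Shares and co-detection used DETCs thinned to 2000 UMIs (seed 1). The expected number of cells with both genes is the product of their shares, and its interval is Poisson on the observed number. Doublets were scored with Scrublet through Scanpy 1.11.5 on 4709 isotype and 6425 anti-Skint1 barcodes. Its own threshold called 1 and 0, so the highest scores, at 0.8% per 1000 barcodes, were marked instead (177 and 330), and marked barcodes were left out in 1 alternative only.

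Genes were named by a rule: all members, pathway genes past 0.5 between libraries, the most abundant of each pathway sublist, the 5 genes most correlated with Gzmb, Gzmc, Nkg7 and Ctsw, and from each state list the genes with the largest and smallest ratio, averaged over libraries, with at least 10 UMIs in the cells with the granzyme. Xcl1, Tnfrsf9 and Cd69 are on the activation list, and the 10 highest cells were described with Xcl1 and Tnfrsf9, chosen with earlier values known.

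Other settings were tried for the gene and mitochondrial limits, the gates, doublets, cell weights, scaling, thinning and the 10 highest cells. Scripts were tested on simulated counts. Other software was Python 3.11.15, NumPy 2.4.6, SciPy 1.17.1, pandas 2.3.3, matplotlib 3.10.9 and Biopython 1.88.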

Additional observations from a re-analysis of the deposited data

Results flagged for a closer look

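Some values drew attention because they stood apart from the rest. Barcodes that passed the DETC gate with more than 2500 genes were not part of the results. In the isotype library there were 312 of them, and their Gzmc level was 262.489 CPM, above the 228 CPM of the DETCs that were kept. Whether these are large cells or doublets was not tested. In alpha-beta T cells the log2 ratio of Gzmc, anti-Skint1 over isotype, was 1.58481, whereas in DETCs it was -0.48, so the classes went opposite ways. In the anti-Skint1 library 43 of the 47 Gzmc UMIs of alpha-beta T cells were in cells that also had Trdc, and 28 were in 1 cell. The difference between the classes was not tested.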

How the results depend on the processing

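Of 109 treatment ratios of members under other settings, 94 kept the sign of the main value and 73 lay inside its interval. Of the members past the fold in the main setting, Gzmb and Gzme, 1 changed sign in 1 setting, namely Gzme in DETCs with over 5 to 8% mitochondrial UMIs, at 0.296685 (-1.06 to 1.76) against -1.52. Gzmc, short of the fold in the main setting at -0.48, was 0.41 (0.29 to 0.52) at up to 5% mitochondrial UMIs. The other changes of sign were in Gzmf, Prf1, Ctsw and Serpinb9, with intervals that include 0 wherever one was taken. Gzmb was lower in the anti-Skint1 library in every setting, from -0.50 at up to 5% mitochondrial UMIs without its highest cell to -1.26 at 8 to 12% mitochondrial UMIs. The number of members higher in anti-Skint1 DETCs was 0 in the main setting. It was 1 (Gzmf) with no upper limit on genes, 1 without the 10 highest cells of each member, and 1 with at most 5% mitochondrial UMIs (the same DETCs as the bin of up to 5%), with or without its highest cell. Gzmc joined the members lower with no upper limit on genes, with Trdv4 required, with equal weight per cell, without its 10 highest cells, in the bins of over 5 to 8% and over 8 to 12%, and in thinned sums. Serpinb9 joined them at over 5 to 8%.

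Of 236 class ratios, 230 kept the sign of the main value and 203 lay inside its interval. Of those past the fold in the main setting 1 changed sign: Gzmc in isotype DETCs over ILCs was -0.155068 with no upper limit on genes, against 2.36. The others that did were of Gzmb, Gzmf and Serpinb9. Gzmc also left the members higher than in ILCs with at most 5% mitochondrial UMIs, with Trdv4 required of DETCs, with equal weight per cell, and with ILCs without Trac or without keratinocyte barcodes. Without Foxp3 cells in the alpha-beta T class, Gzmb joined the members higher in DETCs.

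Of 60 shares of DETCs, 39 moved. The number of granzyme pairs at 2 or more times the expected number was 4 in the main setting and 2 (Gzmb with Gzmc and Gzmc with Gzmf) with at most 5% mitochondrial UMIs. It was 3 with weaker thinning, without thinning, without likely doublets and with no upper limit on genes, and 5 with detection from 2 UMIs, and the rarer pairs that made it up changed, as 1 cell can decide each of them. Gzmb with Gzmc stood at 2.11 or more in both libraries in every setting. The cause was not tested for any of these changes. The alternatives without Foxp3 cells, without keratinocyte barcodes, with detection from 2 UMIs and without the highest cell at up to 5% were added after the data were seen. Gzma and Gzmd gave no treatment ratio in any setting, and Gzme gave none without its 10 highest cells and, like Gzmf, none at 8 to 12% mitochondrial UMIs. No paired analysis was possible because each treatment has 1 library and nothing links the libraries as a pair.

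Each treatment has 1 library, and sorting, library and treatment coincide. Gates by marker mRNA admit other cells, and free RNA adds to every class. Transcript levels were counted here, and no protein, granule release or killing was measured.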
